A study of Mus musculus and Homo sapiens with 352 samples.

Results

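CTCF ChIA-PET interactions that were lost in CTCF-mutant CH12 cells although both of their anchors stayed in use numbered 1474. They were the interactions of the wild-type list whose identical anchor pair was absent from the mutant list, while each of the 2 anchors, at identical coordinates, took part in some other mutant interaction. Of the 11534 interactions listed in wild-type cells they made up 12.8% (12.2 to 13.4 by a 95% Wilson interval), and they held 6951 tags, 9.37% of the wild-type tags listed. Among the 6874 wild-type interactions that had both anchors in the mutant list they were 21.4%, and the other 5400, called kept here, were listed in both genotypes. The remaining wild-type interactions lacked 1 anchor (3614) or both anchors (1046) in the mutant list. The members were thus chosen by the measured tags of the mutant library, through its limit for listing a pair, and the loss itself is a description with no test.

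CH12 is a mouse B cell lymphoma line. One ChIA-PET library came from CH12 cells with the genotype CTCFmZF9to11, a CTCF mutation named for zinc fingers 9 to 11, and 1 from wild-type CH12 cells. The sources used here do not give whether the mutant line is 1 clone, how much CTCF it holds or how the mutation was made. The series holds 352 samples in 98 groups, and besides the ChIA-PET lists this work used a CTCF peak list from wild-type CH12 cells (39438 peaks) and a CTCF peak list from resting and activated B cells (59978 peaks).

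CTCF is a DNA-binding protein whose zinc fingers read a directional sequence motif. Cohesin, a ring-shaped complex, extrudes a growing loop of chromatin and tends to halt where it meets CTCF, so that many loops join CTCF sites whose motifs point towards each other. ChIA-PET pulls down chromatin with an antibody and ligates the DNA ends held in the same complex. A paired-end tag is 1 sequenced ligation product, an interaction is a pair of anchors with enough tags, and an anchor is a CTCF-bound stretch at 1 end. The comparison of these lists asks which of the loops that wild-type CTCF anchors disappear from cells with the altered zinc fingers, and where their anchors connect in those cells.

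The mutant list held 11820 interactions with 82222 tags among 12476 anchors, and the wild-type list 11534 interactions with 74198 tags among 13547 anchors. Both lists start at 3 tags, so a lost interaction may have had 0, 1 or 2 tags in the mutant library, and the depth of the libraries is not known. Anchors in the lists were either identical or did not overlap. There was 1 library per genotype, so differences between lists are differences between 2 libraries with no replicate check. Intervals given below are 95% intervals that cover counting error only and treat interactions as independent, although many share an anchor. No p-value is given. All coordinates are in the mouse build mm9. Genes and motifs at the anchors were not analysed here.

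The lost interactions were mostly weakly supported loops, as were the other missing ones. They had a median of 4 wild-type tags and a mean of 4.72, against a median of 6 and a mean of 8.43 for kept interactions. Of the lost interactions, 682 (46.3%, 43.7 to 48.8) sat at the lower limit of 3 tags, against 19% (18.0 to 20.0) of kept ones. The whole wild-type list also had a median of 4 tags, with 33.1% at the limit. Missing interactions with 1 anchor remaining had 43.8% at the limit, and those with no anchor remaining had 50.4%. At the other extreme, 69 lost interactions had 10 or more wild-type tags, 16 had 20 or more, and the highest had 72. The rule gives every lost interaction another mutant interaction at each anchor, and only 2969 of the kept ones had that. These 2969, called like kept here, serve as a second comparison, chosen after the data were seen. Beside them alone the lost share was 33.2% (31.8 to 34.6).

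The lost share of all pairs with both anchors in the mutant list was lower in each higher class of tags, as the plot of lost shares by tags and span shows. It was 40.0% of those with 3 tags (682 of 1707), 29.0% with 4 tags, 18.9% with 5 to 6 tags and 10.8% with 7 to 9 tags. It was 4.87% with 10 to 19 tags (53 of 1088) and 4.13% with 20 or more (16 of 387), where the intervals, 3.74 to 6.32 and 2.56 to 6.61, overlapped. Beside like kept interactions the order was the same, with lost shares of 57.8% at 3 tags and 6.11% at 20 or more.

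The values next to the limit of the rule were as follows. Just outside the rule, 824 kept interactions had exactly 3 mutant tags, with a median of 4 wild-type tags and at most 32. A further 714 kept interactions had 4 mutant tags, with a median of 4 wild-type tags and at most 28. The mutant tags of lost interactions are not known, so those just inside the limit cannot be picked out.

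**Figure D1:**
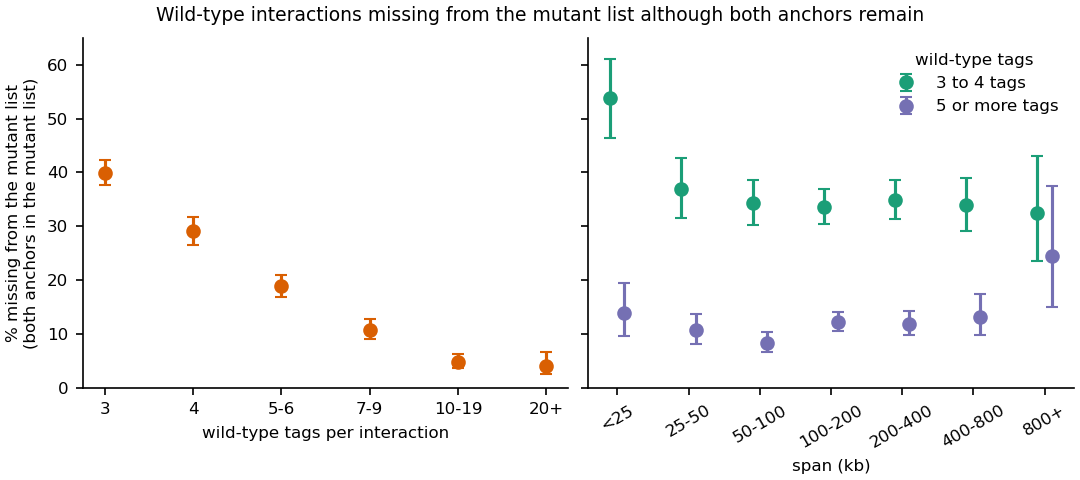
Lost share, in percent of the wild-type interactions that had both anchors in the mutant list, by wild-type tags (left) and by span in kb within 2 classes of wild-type tags (right). Points are shares and bars are 95% Wilson intervals for counting error. The share is 40.0% at 3 tags and 4.13% at 20 or more. At 3 to 4 tags it is highest under 25 kb, at 53.8%, and at 5 or more tags it is highest from 800 kb, at 24.5%.

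The median span of lost loops was slightly above that of all kept loops, and the lost share was highest at both ends of the range of spans. Span is the distance between anchor midpoints and was not used by the rule. The median span was 147 kb (138 to 159) for lost interactions and 134 kb (130.3 to 139) for kept ones, a log2 ratio of 0.14 (0.04 to 0.24). Like kept interactions had a median of 140.5 kb (135 to 147), which overlaps that of lost ones. With anchors matched within 10 kb in place of identical ones the log2 ratio was 0.26. Lost interactions ran from 8.13 to 1793 kb. Of them, 13.5% spanned 400 kb or more, against 11.0% of kept ones, and 18.7% spanned less than 50 kb, against 15.8%. The lost share was 32.6% (28.0 to 37.6) under 25 kb, where 120 were lost, 17.5% (15.6 to 19.6) at 50 to 100 kb and 29.5% (22.5 to 37.5) from 800 kb, where 41 were lost. Beside like kept interactions the shares were 48.4% (42.2 to 54.6), 28.7% (25.8 to 31.8) and 50.0% (39.4 to 60.6) in the same 3 classes.

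Support and span move together, so the span classes were also read within classes of tags. Among interactions with 3 to 4 tags the lost share was 53.8% (46.3 to 61.0) under 25 kb and between 32.6% and 36.9% in every longer class. The median span in that class was 149 kb (137 to 161) for lost interactions and 157 kb (149 to 165) for kept ones, and the intervals overlapped. Like kept interactions of that class had a longer median, 179 kb (164 to 189). Among interactions with 5 or more tags the lost share was 8.35% (6.74 to 10.3) at 50 to 100 kb and 24.5% (14.9 to 37.6) from 800 kb, which rests on 13 lost and 40 kept interactions. There the median span was 144 kb (133 to 163) for lost interactions and 125 kb (120.4 to 129.6) for kept ones, and 128 kb (122 to 134) for like kept ones. Beside like kept interactions, then, the median of lost loops was shorter with 3 to 4 tags, and with 5 or more tags it was longer with intervals that overlapped. The lost share under 25 kb with 3 to 4 tags was 71.5% (63.3 to 78.6) on that comparison.

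The 1474 lost interactions had 2948 ends at 2498 different anchors, 27.5% of the 9095 anchors found in both lists. Of these anchors, 2109 took part in 1 lost interaction, 336 in 2, 46 in 3, 6 in 4 and 1 in 5. In all, 695 lost interactions shared an anchor with another lost one. For 429 lost interactions (29.1%) the mutant list held an interaction within 10 kb at both anchors, so a loop between the same neighbourhoods was listed there.

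Lost interactions were more often minor contacts of their anchors, in part through the rule. With 3 to 4 tags, lost and like kept interactions were close in this. A lost interaction carried a median of 33.3% (31.2 to 33.3) of the wild-type tags of its anchor, against 54.5% (53.3 to 55.6) for a kept one. It was the strongest wild-type interaction of 1 anchor or more in 61.3% of cases (58.7 to 63.7), against 85.9% (84.9 to 86.8) for kept ones, and of both anchors in 18.9%, against 46.7%. Among like kept ones the median share of tags was 45.5% (44.4 to 46.5). With 3 to 4 tags that median was 27.3% (26.7 to 30.0) for both lost and like kept interactions. With 5 or more tags it was 45.0% (41.7 to 46.2) for lost and 52.6% (50.0 to 53.8) for like kept ones. Of the like kept interactions, 77.7% (76.2 to 79.2) were the strongest of 1 anchor or more. With 3 to 4 tags the intervals overlapped, at 53.9% (50.9 to 57.0) of lost and 55.5% (52.3 to 58.6) of like kept interactions. With 5 or more tags it was 77.6% (73.6 to 81.2) of lost and 87.9% (86.4 to 89.2) of like kept interactions. Among all kept interactions with 5 or more tags it was 92.7% (91.8 to 93.5). Of the 69 lost loops with 10 or more tags, 67 were the strongest at 1 anchor or more, a count that their many tags favour. In 50 lost cases (3.39%) the interaction was the only wild-type contact of both anchors, against 8.15% of kept and 3.07% of like kept ones. The rule works on this measure, since an anchor stays in the mutant list only through another interaction.

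Lost loops and like kept loops had similar shares with no other loop anchor between their ends. No anchor of either list lay between the ends in 18.6% of lost interactions (16.7 to 20.7), in 20.0% of like kept ones (18.6 to 21.5) and in 30.5% of all kept ones (29.3 to 31.8). With 3 to 4 tags the share was 18.7% (16.4 to 21.2) of lost and 15.6% (13.4 to 18.1) of like kept interactions. With 5 or more tags it was 18.4% (15.1 to 22.2) of lost and 22.1% (20.3 to 23.9) of like kept ones. In all 3 comparisons of lost with like kept interactions the intervals overlapped.

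Within the wild-type list alone, the ends of lost interactions more often pointed away from the rest of their anchor's contacts. Of the 2402 lost ends whose anchor had another wild-type partner, 478 (19.9%, 18.4 to 21.5) had all other partners on the opposite side, against 690 of 7680 kept ends (8.98%, 8.37 to 9.64) and 500 of 4912 like kept ends (10.2%, 9.36 to 11.1). With 2 or more other wild-type partners the shares were 15.6% (13.8 to 17.6) of lost and 6.29% (5.61 to 7.05) of kept ends. The gap was present at 3 to 4 tags, with 23.1% (21.1 to 25.2) of lost and 13.6% (12.0 to 15.5) of like kept ends. It was present at 5 or more tags, with 12.9% (10.7 to 15.5) of lost and 8.66% (7.76 to 9.65) of like kept ends. Ends that pointed away were thus a minority among lost ends, and a larger one than among kept or like kept ends.

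The anchors of lost loops went on contacting other sites in the mutant cells, some old and some new. By the rule every lost end had another mutant partner, so they were set beside the 8050 of 10800 kept ends that also had one. A new mutant partner is one absent from the anchor's listed wild-type partners, and it may have had up to 2 wild-type tags. One was present at 68.1% of lost ends (66.4 to 69.7) and at 72.1% of those kept ends (71.2 to 73.1). A mutant partner already present in the wild-type list was found at 68.6% of lost and 69.3% of kept ends, and new partners only at 31.4% and 30.7%. Lost ends had a mean of 2.10 other mutant partners, and the kept ends 2.36. With exactly 1 other mutant partner, a new one was present at 49.4% of lost ends (46.8 to 52.1) and 51.9% of kept ends (50.2 to 53.7). With 2 or more it was 83.4% (81.5 to 85.2) and 84.7% (83.6 to 85.6), so within both strata the intervals overlapped. Counting only mutant partners with 5 or more tags, a new partner was found at 28.8% of lost ends and a farther one on the same side at 11.7%. In the reverse direction, 2704 of the 8104 mutant interactions with both anchors in the wild-type list, 33.4%, were absent from the wild-type list.

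By interaction, 675 lost loops (45.8%) had a new partner at both ends, 657 (44.6%) at 1 end and 142 (9.63%) at neither. For 143 (9.70%) none of the listed mutant partners of either anchor had been listed as its partner in wild-type cells. Of the 69 with 10 or more wild-type tags, 60 had a new partner at 1 end or more, and of the 16 with 20 or more tags, 15 did.

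The new contacts of these anchors had a longer median span than the lost loops and, like them, mostly few tags. In the mutant list 2316 interactions joined an anchor of a lost loop to a new partner, 36.1% of the 6420 interactions found in the mutant list only. Of the 5400 kept pairs, 2159 were at the same anchors, so the share among mutant-only interactions was no higher. The 2316 new contacts held 11008 tags with a median of 4, and 1042 (45.0%) had 3 tags, while 126 had 10 or more. Of the lost loops, 46.3% had 3 tags. The tags and spans of mutant-only interactions at other anchors were not summarised. Their median span was 176 kb (169 to 184), above the 147 kb of the lost interactions, and 18.3% spanned 400 kb or more. The 2159 kept pairs at the same anchors had a median span of 131 kb. The other anchor was also in the wild-type list for 1489 (64.3%, 62.3 to 66.2) and in the mutant list only for 827, and 321 joined a pair of lost-loop anchors to each other.

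The strongest of these new contacts had as many tags as the strongest lost loop. It joined chr13:56298451-56299584 to chr13:56367341-56369517 with 72 mutant tags over 69.4 kb. The next joined chr10:79387509-79389667 to chr10:79420562-79421347 with 41 tags over 32.4 kb. The third was short, from chr11:100142595-100144683 to chr11:100156067-100157567, with 39 tags over 13.2 kb. Another on chromosome 11, from 94727098 to 94798991, had 33 tags over 70.1 kb, and 1 on chromosome 15, from 101070819 to 101115053, had 32 tags over 42.8 kb. All 5 were shorter than the median new contact.

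Most new partners lay on the side where the lost partner had been, at distances spread around it. Of 3124 pairs of a lost end and a new partner, 2126 (68.1%, 66.4 to 69.7) lay on the side of the lost partner and 998 on the opposite side. On the same side 1154 were farther than the lost partner and 972 nearer, a median log2 ratio of spans of 0.10 (0.03 to 0.17). Only 339 of them (15.9%) lay within 20 kb of the lost partner, and the median distance to it was 109 kb. On the opposite side the median log2 ratio was 0.39. The histogram of the reach of new partners shows both distributions.

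**Figure D2:**
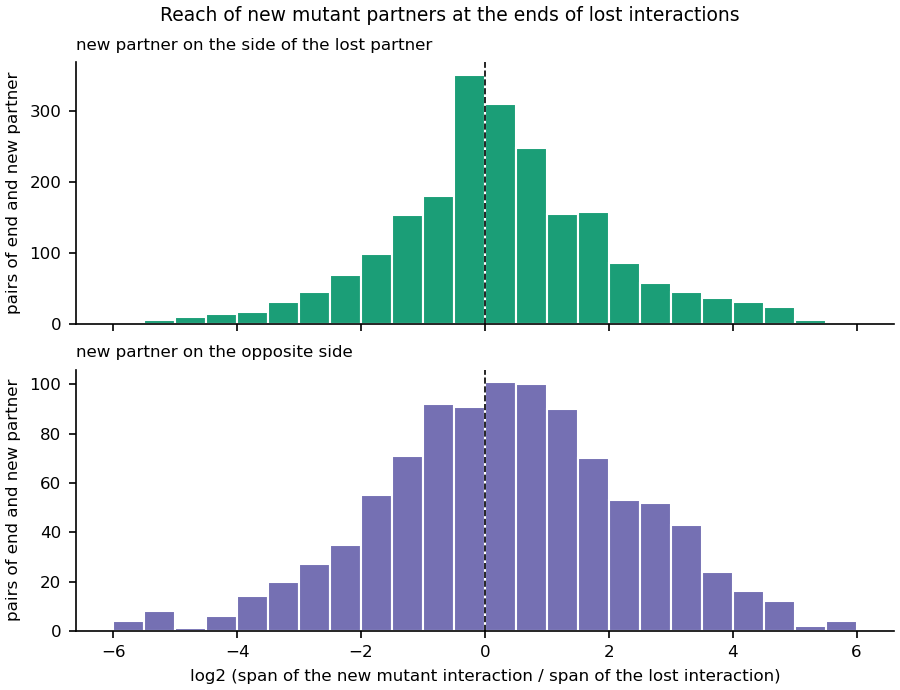
Reach of new mutant partners at ends of lost interactions. The x axis is the log2 ratio of the span of the new mutant interaction to that of the lost interaction, and bars count pairs of an end and a new partner, on the side of the lost partner (top) or opposite (bottom). The dashed line marks equal span. On the same side 1154 pairs lie to the right of it and 972 to the left, and 11 pairs fall outside the plotted range.

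Set beside kept ends with another mutant partner, lost ends less often had another mutant contact on the side of the partner looked at, and their new contacts there were less often farther ones. A farther new partner on that side was present at 31.1% of lost ends (29.5 to 32.8) and 43.9% of kept ends (42.8 to 45.0), and a nearer one at 26.9% and 24.0%. New partners on the opposite side were found at 26.1% of lost and 25.2% of kept ends, with overlapping intervals. Any other mutant partner on the same side, old or new, was present at 80.6% of lost ends (79.1 to 82.0) and 90.9% of kept ends (90.3 to 91.5). At 572 lost ends (19.4%) all other mutant partners, the partner looked at left out, lay on the opposite side, against 9.08% of the kept ends. A gap of similar size was already present in the wild-type list. There all other wild-type partners lay opposite at 19.9% of lost and 8.98% of kept ends whose anchor had another wild-type partner. Where an end had exactly 1 other mutant partner, a farther new one was present at 18.0% of lost and 28.0% of kept ends, and a nearer new one at 19% of lost (17.0 to 21.2) and 13.6% of kept ends (12.4 to 14.8).

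A mutant partner close to the lost one was common. It was less so than close partners around like kept loops, but within each tag class the intervals overlapped. For 629 lost loops (42.7%, 40.2 to 45.2) a mutant partner of 1 anchor or more lay within 20 kb of the lost partner. Other mutant partners lay that close at 1529 of the 2969 like kept loops (51.5%, 49.7 to 53.3), and at 42.3% of all kept loops, many of which lack another mutant partner at 1 or both anchors. With 3 to 4 tags the shares were 39.1% (36.1 to 42.1) of lost and 42.7% (39.5 to 45.9) of like kept loops, with overlapping intervals. With 5 or more tags they were 50.7% (46.1 to 55.2) and 55.5% (53.4 to 57.7), again with overlap. By end, a close one was present at 23.6% of lost ends (22.1 to 25.2) and at 31.7% (30.7 to 32.7) of kept ends with another mutant partner. At 68 lost loops (4.61%, 3.66 to 5.81) this held from both anchors, against 270 like kept loops (9.09%, 8.11 to 10.2). Within each tag class these intervals overlapped too. At 314 lost loops (21.3%) the close partner was new. Of the 69 lost loops with 10 or more tags, 43 had a mutant partner that close.

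Both ends of a lost loop often met at a common further anchor in the mutant list. A shared mutant partner was found for 742 lost loops (50.3%, 47.8 to 52.9), and for 56.5% of like kept ones (54.7 to 58.3). It lay between the ends for 15.3% of lost and 21.9% of like kept loops, and outside them for 37.2% and 40.2%. With 3 to 4 tags a shared mutant partner was found for 50.2% of lost (47.1 to 53.3) and 53.3% of like kept loops (50.1 to 56.5). With 5 or more tags it was 50.7% of lost (46.1 to 55.2) and 58.0% of like kept loops (55.8 to 60.1), with intervals apart. A shared partner between the ends was less frequent at lost loops in both tag classes. Its intervals were apart with 3 to 4 tags and overlapped with 5 or more. Among all kept loops a shared mutant partner was found for 31.1%. Many of these loops lack the other mutant partners that the rule gives every lost loop. In the wild-type list, 32.2% of lost (29.9 to 34.7) and 35.7% of like kept loops (34 to 37.4) had a shared partner, and the intervals overlapped. With mutant partners of 5 or more tags alone, a shared one was found for 19% of lost loops and a close one for 27.2%.

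Summed over all contacts, the anchors of lost loops held somewhat fewer tags in mutant than in wild-type cells. They averaged 15.9 mutant and 16.7 wild-type tags per anchor as listed. With mutant tags scaled by 0.902, the ratio of all listed tags, the mean was 14.3 mutant tags. The median log2 ratio of scaled mutant over wild-type tags was -0.26 (-0.32 to -0.17) at these anchors, and 0.21 (0.19 to 0.27) at the other anchors in both lists. Pairs in both lists gave 10.8 mutant and 9.57 wild-type tags per anchor. New pairs added 5.05 mutant tags per anchor, against 5.57 wild-type tags in lost pairs and 1.55 in pairs whose other anchor was missing. The mean number of partners was 2.07 in the mutant list and 2.51 in the wild-type list. The other 6597 anchors in both lists averaged 15.9 mutant and 12.2 wild-type tags, and 2.12 mutant and 1.68 wild-type partners. These sums are the rule's own contrast, and a wild-type excess at lost-loop anchors follows from their choice, because each had to hold a lost interaction.

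**Figure D3:**
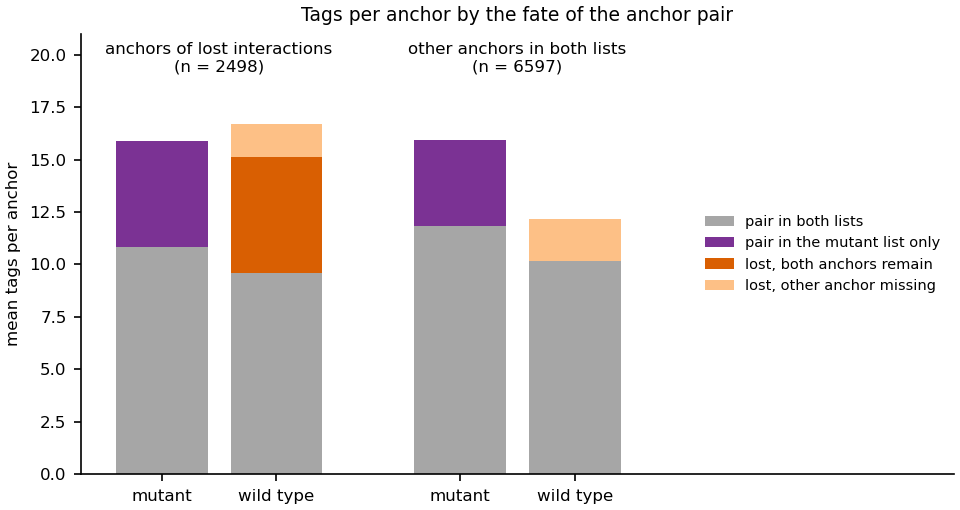
Mean tags per anchor in the mutant and wild-type lists, for anchors of lost interactions and for the other anchors in both lists. Colours split the tags by the fate of the anchor pair. At lost-loop anchors 5.05 mutant tags come from pairs of the mutant list only, and 5.57 wild-type tags come from lost pairs.

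A minority of these anchors had far fewer contacts in the mutant cells. With the same scaling, 628 lost-loop anchors (25.1%) had tags at least 2-fold lower in the mutant list, where the share over all 9095 anchors in both lists was 14.2%. Tags at least 2-fold higher were found at 213 (8.53%), against 17% over all. The lost interaction is part of these sums, so the shift to lower values is built into the choice. The log2 ratio of mutant over wild-type tags with the other partners alone was 0.01 (-0.06 to 0.06) at lost ends and 0.14 (0.11 to 0.17) at kept ends.

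The strongest lost loops differed from the rest in this respect. Of all lost loops, 764 (51.8%) had neither end 2-fold lower, 587 (39.8%) had 1 and 123 (8.34%) had both. Of the 69 with 10 or more tags, 4 had neither end 2-fold lower, 34 had 1 and 31 had both. Among kept loops with 10 or more tags, 74.5% had neither, 19.3% had 1 and 6.12% had both. Losing a strong loop takes many tags from an anchor, so these counts also follow from the choice.

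The strength of CTCF binding in wild-type CH12 cells was close to that of all kept loops, and lower at lost than at like kept ends. Peak strength was read as the percentile of the strongest peak at the anchor among all peaks of the list, and it comes from libraries that the rule did not use. The median percentile was 82.2 (81.4 to 83.0) at lost ends and 82.5 (82.0 to 83.0) at kept ends. At like kept ends it was 85.4 (84.8 to 86.0), an interval apart from that of lost ends. The weaker end had a median of 70.4 (69.0 to 72.0) in lost and 70.8 (70.0 to 71.6) in kept loops, and the stronger end 90.8 and 91.0. A peak lay at both ends of 99.2% of lost loops and of 99.2% of kept loops, which the mapping of interactions to peaks largely fixes. Wild-type loops with 1 anchor missing from the mutant list had a lower median of 75.0, and those with both anchors missing had 64.4.

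**Figure D4:**
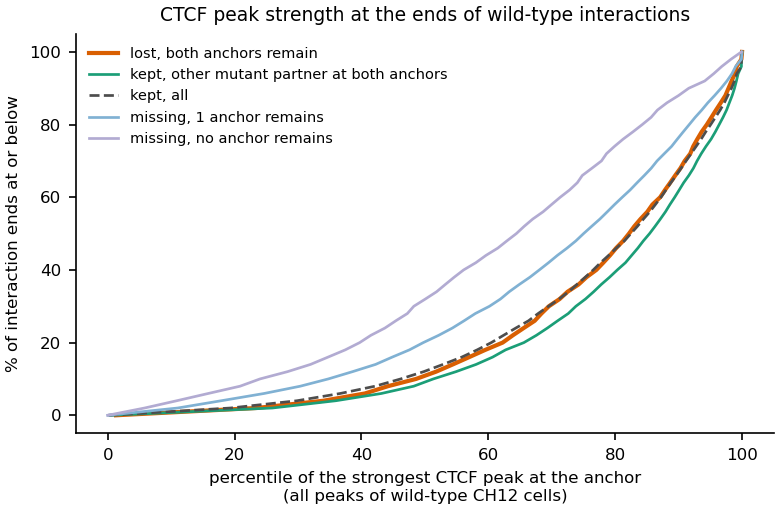
Percent of interaction ends at or below each percentile of CTCF peak strength in wild-type CH12 cells, for the 4 classes of wild-type interactions and for the kept ones with another mutant partner at both anchors. The curves of lost (median 82.2) and all kept (median 82.5) interactions lie close together, that of like kept ones (85.4) lies at higher percentiles, and those with 1 anchor (75.0) or no anchor (64.4) remaining lie at lower percentiles.

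Peak strength was higher in the higher tag classes, so it was also read within tag classes. Against all kept ends the median was higher at lost ends in 5 of 6 tag classes, and lower at 10 to 19 tags. The intervals overlapped in all 6 classes, narrowly at 4 tags. At 3 tags it was 81.0 (79.6 to 82.4) at lost and 79.1 (77.6 to 80.5) at kept ends, and at 4 tags 82.6 (81.1 to 84.3) and 79.5 (77.7 to 81.1). Against like kept ends the order was the other way. With 3 to 4 tags the median was 81.6 (80.3 to 82.7) at lost and 83.1 (82.2 to 84.1) at like kept ends, with intervals that overlapped. With 5 or more tags it was 83.7 (81.9 to 85.3) at lost and 86.4 (85.8 to 87.1) at like kept ends. The sign of the difference thus depended on which kept loops were compared, and against all kept ends it stayed within overlapping intervals. CTCF peaks of primary B cells lay at both ends of 1468 lost loops (99.6%, 99.1 to 99.8) and of 98.8% (98.4 to 99.0) of kept ones, leaving 6 lost loops without. The median percentile of the B cell peaks, ranked by the authors' fold over background, was 71.8 (70.9 to 72.8) at lost ends and 72.2 (71.8 to 72.5) at kept ends, and 72.0 (71.2 to 72.4) at like kept ends. CTCF binding in mutant cells was not analysed here.

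The strongest lost loop, with 72 wild-type tags over 147 kb, joined chr2:166897176-166898269 to chr2:167044651-167045629. Its left anchor kept many contacts, with 91 mutant tags at 6 partners and 133 wild-type tags at 6 partners. Its largest remaining contact lay 15.7 kb short of the lost partner and had 36 mutant and 41 wild-type tags. A contact 29.4 kb short of the lost partner had 18 mutant and 3 wild-type tags. A new contact 59.6 kb past it, at chr2:167103959-167105434, had 18 mutant tags. The right anchor held 13 mutant tags at 3 partners and 82 wild-type tags at 4 partners. Its 3 mutant partners were all shared with the left anchor. At this locus the right anchor thus had few listed mutant tags, and the left anchor had its mutant tags at sites nearer and farther than the lost partner.

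The second lost loop, with 52 tags over 129 kb, joined chr6:50757826-50758758 to chr6:50886656-50887853, with no other anchor between them. The left anchor held 5 mutant and 58 wild-type tags, and its only mutant partner was new, at chr6:51117734-51119242, 231 kb past the lost partner. The right anchor contacted the same site with 8 mutant and 6 wild-type tags. The right anchor also contacted a site 258 kb to its left, past the lost partner, with 25 mutant and 8 wild-type tags. All of the mutant contacts of these anchors were longer than the lost loop, and those of the right anchor were also in the wild-type list.

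The third lost loop was short and had no new partner at either end. It joined chr7:19885700-19886774 to chr7:19927819-19929603 with 38 tags over 42.5 kb. The right anchor held 10 mutant tags at 1 partner and 64 wild-type tags at 6 partners. Its 1 mutant partner lay 3.00 kb from the lost partner and had 10 mutant and 4 wild-type tags. The left anchor held 13 mutant and 50 wild-type tags, with its strongest mutant contact 20.8 kb past the lost partner, at 9 mutant and 4 wild-type tags.

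The fourth, with 37 tags, spanned 19.8 kb between chr11:117944357-117945880 and chr11:117963645-117966093. The left anchor had 31 mutant and 40 wild-type tags, and its 3 mutant partners lay 137, 213 and 359 kb away, with 13, 9 and 9 tags. The right anchor had 13 mutant and 90 wild-type tags, and its contact 233 kb to the left had 7 mutant and 32 wild-type tags. That same site was a new partner of the left anchor, at 9 mutant tags. A contact that the right anchor held in wild-type cells was thus listed at both anchors in mutant cells.

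**Figure D5:**
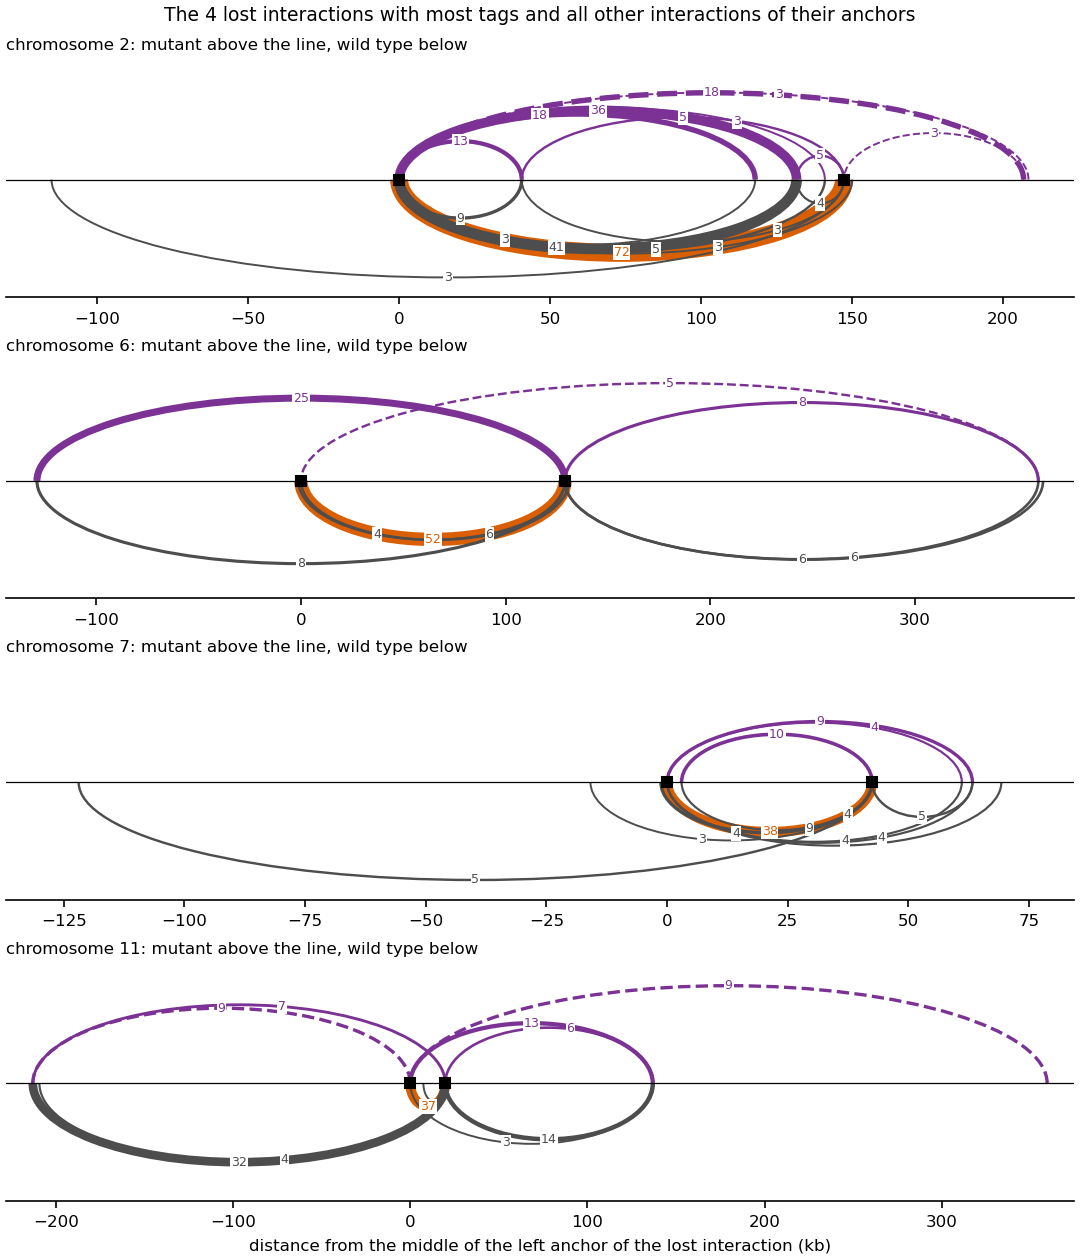
Interactions at the anchors of the 4 lost loops with most tags, on chromosomes 2, 6, 7 and 11. The x axis is the distance in kb from the middle of the left anchor, and black squares mark the anchors of the lost loop. Purple arcs above the line are mutant interactions (dashed where in the mutant list only), and arcs below it are wild-type interactions, the lost loop in orange. Numbers are tags, line width grows with tags, arc height has no unit, and a few labels are left out where arcs crowd. The lost loops have 72, 52, 38 and 37 tags, and the thickest mutant arc, with 36 tags, ends 15.7 kb short of the lost partner on chromosome 2.

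Loops 5 to 12 in the ranking had 32 to 24 tags. The loop on chromosome 9, from 123068206 to 123162540, with 32 tags over 93.4 kb, was the only wild-type contact of both its anchors. In mutant cells both anchors contacted chr9:122645547-122646532, 423 kb to the left of the left anchor, with 4 tags from the left and 5 from the right. The left anchor also gained a partner 291 kb to its right with 4 tags. All listed mutant contacts of this pair of anchors were thus new, longer than the lost loop and of fewer tags.

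On chromosome 14, the loop from 64510308 to 64666986, with 30 tags over 156 kb, had at its left anchor a new mutant partner 22.8 kb past the lost one, with 9 tags. The right anchor contacted a site 22.1 kb past the lost partner with 11 mutant and 7 wild-type tags. Another chromosome 14 loop, from 35429582 to 35591752, with 27 tags over 161 kb, had shorter mutant contacts close by. Its left anchor contacted a site 8.97 kb short of the lost partner with 20 mutant and 8 wild-type tags, and its right anchor a site 4.15 kb short of it with 6 mutant and 7 wild-type tags.

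A loop on chromosome 4, from 62358105 to 62423430, with 27 tags over 64.2 kb, had new partners close to the lost ones at both ends. Its left anchor gained a partner 2.31 kb past the lost one with 8 tags, and its right anchor a partner 1.49 kb past it with 8 tags. Of the 12 strongest lost loops it was the one with new partners nearest to the lost anchors. On chromosome 15, the loop from 58423927 to 58702354, with 25 tags over 277 kb, was the only wild-type contact of its left anchor, whose 1 mutant contact, of 4 tags, lay 6.99 kb past the lost partner.

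The remaining loops of the 12 had new contacts of few tags. On chromosome 2, the loop from 167105788 to 167245440, with 29 tags over 138 kb, lay next to the strongest lost loop. A new mutant contact of 3 tags over 209 kb joined the left anchors of both. On chromosome 15, the loop from 78277613 to 78363508, with 25 tags over 84.3 kb, had 3 new partners at each anchor, the strongest of 6 tags, 134 kb from the left anchor. On chromosome 11, the loop from 66837963 to 66915944, with 24 tags over 77.1 kb, was the only wild-type contact of its right anchor. That anchor gained 2 partners of 3 tags each in mutant cells, 196 kb to the left and 249 kb to the right. At every end of the 12 strongest lost loops the mutant tags summed to less than the wild-type tags. The choice favours this, because the lost loop itself is part of the wild-type sum.

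The 3 longest lost loops with 5 or more tags spanned over a megabase, and the right anchor of each held 3 mutant tags. The longest, from chr8:24347348-24348923 to chr8:25635223-25636318, had 5 tags over 1288 kb. Its left anchor held 36 mutant and 36 wild-type tags, of which 29 mutant and 27 wild-type tags joined a site 57.6 kb to the left. A new contact of 3 tags still reached 1309 kb to the right, 21.6 kb past the lost partner. The loop from chr5:24179800-24180812 to chr5:25337124-25338144 had 5 tags over 1157 kb, and its left anchor held 8 mutant and 12 wild-type tags. The loop from chr2:109743975-109745025 to chr2:110898507-110899338 had 8 tags over 1154 kb. Its left anchor held 54 mutant and 59 wild-type tags, and its right anchor 3 mutant and 11 wild-type tags.

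Some anchors lost nearly all of their listed partners. Of the 7 anchors with 4 or more lost loops, 5 are described, taken by lost loops and then by wild-type tags. The anchor with most lost loops, chr2:122020152-122020893, had 1 mutant partner with 4 tags and 6 wild-type partners with 37 tags. Of its 5 lost loops, 2 ran leftward and 3 rightward, with 3 to 6 tags each. The pair it kept, over 108 kb, had 4 mutant and 16 wild-type tags. The anchor chr14:22667624-22668856 lost 4 loops to its left, at 170.4 to 728 kb, and kept 1 partner 36.1 kb away with 15 mutant and 40 wild-type tags. It carried a CTCF peak at percentile 99.1 in wild-type CH12 cells. At both anchors the pair that stayed was the one with most wild-type tags, and it had fewer mutant than wild-type tags.

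The other 3 of these 5 anchors had 4 lost loops each. One was chr7:19927819-19929603, the right anchor of the third strongest lost loop, whose 4 lost loops held 57 wild-type tags. It also kept 1 partner, but this pair was not its strongest in wild-type cells and had 10 mutant and 4 wild-type tags. The anchor chr14:69762967-69764040 held 13 mutant tags at 3 partners and 33 wild-type tags at 7 partners. Its 2 new partners lay 309.7 and 344 kb to the right, and the right-hand partners of its lost loops at 96.3 to 219 kb. Another wild-type partner, of 3 tags and not listed for it in the mutant, lay between the new ones at 334 kb. The anchor chr7:52937690-52939039 held 20 mutant tags at 4 partners and 33 wild-type tags at 7 partners, all to its left in both lists. Of its 4 lost partners, 3 lay at 89.5 to 93.5 kb, and a new one of 5 tags lay 95.7 kb away.

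Lost loops were found on every chromosome at similar shares of the pairs whose anchors both remained. The share ran from 17.0% (12.7 to 22.4) on chromosome 13 to 23.7% (19.1 to 28.9) on chromosome 17 among the autosomes. On chromosome X it was 5.41% (1.50 to 17.7), with 2 lost and 35 kept. There 65.1% (55.6 to 73.5) of wild-type interactions had an anchor missing from the mutant list, and on chromosome 16 the figure was 50.0%. The low share on chromosome X thus stood beside a high share of loops lost along with an anchor.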

How the data were processed

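CTCF ChIA-PET lists of mutant and wild-type CH12 cells, 1 library each, were deposited as counts of supporting paired-end tags per anchor pair. The limits of at least 3 tags and at most 2 Mb, and the mapping to CTCF peaks that hold a core motif, are the authors', per the file headers. The CH12 CTCF peaks carry a score deposited by the authors (peak names start with MACS). The deposited B cell peaks carry a fold over background, used here, and −log10 p- and q-values, not used. Pooling of libraries before peak calling is not stated. The submitters' processing notes list the build mm9 and BWA, bedtools 2.25, SAMtools 1.2, Bowtie 1.1.1 and CASAVA 1.8.2 for ChIA-PET, with no roles. Not given in the sources used here are the interaction caller, the depth and the cells whose peaks defined the anchors.

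Anchor pairs were matched by identical coordinates. A peak belonged to an anchor when they overlapped by at least 1 bp, and scores and folds were used only as percentiles within their list. Shares have Wilson intervals and medians binomial order-statistic intervals, both at 95%. The interval of a ratio or difference of medians carries the error of the lost median alone. With 1 library per genotype no test was run. Mutant tags were scaled by 0.902 for the 2-fold classes and the tag ratios per anchor only.

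Named loops were the 12 lost ones with most wild-type tags and the 3 longest with 5 or more tags, and named anchors the 5 with most lost loops, ties taken by wild-type tags. The 5 strongest new contacts were chosen after their values were seen. The members, rules and comparisons were chosen with earlier results of these data known. Alternatives were other tag limits, matching and nearness distances, tie rules, peak thresholds and leaving out chromosome X. The comparison with kept interactions that have another mutant partner at both anchors was added after the data were seen. Genes, motif orientation and sequences at anchors were not analysed here for want of an mm9 genome and annotation. The steps were tested on simulated data. The software was Python 3.11.15 with matplotlib 3.10.9, scipy 1.17.1, pandas 2.3.3 and numpy 2.4.6.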

Additional observations from a re-analysis of the deposited data

How the results depend on the processing

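No paired analysis was possible because each genotype had 1 ChIA-PET library, and no replicate could be left out. Of 32 alternatives, 11 gave values inside the 95% interval reported and 21 gave values outside it. A change of sign could be counted only where the reported interval excluded 0. That held for the log2 span ratio, with 0 changes of sign, and not for the difference in CTCF percentile. The CTCF difference, lost minus kept, was -0.30 percentiles (-1.09 to 0.51), -0.74 (-1.58 to -0.03) with peaks at or above the median score, -0.33 at weaker anchors and 0.45 at 10 or more wild-type tags. Against kept loops with another mutant partner at both anchors, chosen after the data were seen, it was -3.24, the lost share 33.2% and the log2 span ratio 0.07. The lost share of 21.4% became 14.5% with 4 or more tags in both lists, 15.2% with anchors matched within 10 kb and 4.68% for wild-type interactions with 10 or more tags. The median tags became 5 at 4 or more tags, and the log2 span ratio 0.26 within 10 kb. With mutant partners of 5 or more tags, a new partner was found at 28.8% of lost ends, a farther one at 11.7%, a shared partner for 19% of lost loops and a close one for 27.2%. Calling a partner new only with no wild-type partner within 10 kb gave 60.7% and, for farther ones, 27.6%. For lost loops with 10 or more wild-type tags the shares were 44.9% (farther), 56.5% (shared), 62.3% (close) and 97.1% (strongest at an anchor). Close partners were found for 28.7% at 10 kb and 63.2% at 50 kb. Without ties, 49.6% were strongest. B cell peaks at or above the median fold lay at both anchors of 75.3%. Low tag numbers limit all of these: most lost loops have 3 or 4 tags, and the mutant tags of a missing pair are unknown below 3.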
